A study of Mus musculus with 38 samples.

Results

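The 40 genes described here are interferon-stimulated genes, that is, genes whose transcription rises when a cell responds to type I interferon, and most of their products act against viral nucleic acid or viral protein synthesis. They were taken as a fixed list of gene symbols, and each symbol was found on exactly 1 of the 55487 rows of the deposited count table, so that all 40 of 55487 genes are followed across the 10 groups of the 3 experiments. By role the list holds 5 RNA and DNA sensors, 3 transcription factors, 4 genes of the ISG15 system, 4 IFIT genes, 6 OAS genes, 2 Mx genes, viperin (Rsad2) with its neighbour Cmpk2, 4 genes of the PARP and DTX3L group, 3 genes of membrane or secreted proteins, 3 of mitochondrial or apoptosis-linked proteins and 4 others.

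Bulk RNA-Seq was performed on a fragment of kidney from mice with or without kidney disease given recombinant human fibroblast growth factor 23 (FGF23), a bone hormone that makes the kidney excrete phosphate, or vehicle, to find what an excess of this hormone does to renal transcription. In the first experiment, male C57BL/6JRj mice entered at 8 weeks of age, were immunised with sheep IgG in Freund's adjuvant and received nephrotoxic serum 4 days later, which causes anti-glomerular basement membrane (anti-GBM) disease, while healthy controls received saline. FGF23 was injected intravenously at 1 µg in each of 6 daily doses in these mice, starting 1 day after the serum, with kidneys collected 24 h after the last dose. The groups were healthy vehicle (4 mice), healthy FGF23 (3 mice), anti-GBM vehicle (4 mice) and anti-GBM FGF23 (3 mice), all aged 10 weeks at the end. These numbers follow the sample labels, while figure legends of the study give 3 for the anti-GBM groups and 4 for the healthy groups. In the second experiment, female BALB/c mice received a single intravenous dose of Adriamycin, a toxin that injures podocytes, or saline, and were killed at 10 weeks of age, 24 h after a single injection of vehicle or of 1 µg FGF23, with 4 mice in each of the 4 groups. In the third, precision-cut kidney slices (PCKS) 300 µm thick from male DBA/2J mice fed 0.2% adenine for 15 weeks and aged 23 weeks were held in culture for 20 h and then treated with FGF23 at 200 ng/mL or vehicle, with 4 cultures per treatment and no slices from disease-free mice. The labels give 1 h for the treatment of the slices and the text of the study gives 24 h, and the study treats the 4 cultures of a treatment as independent biological replicates, while no source used here says whether a vehicle and an FGF23 culture of the same number share a mouse.

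Type I interferons are secreted by cells that sense foreign or misplaced nucleic acid and bind the receptor chains IFNAR1 and IFNAR2. The kinases JAK1 and TYK2 then phosphorylate STAT proteins, among them STAT2, which is found with IRF9 in ISGF3, a complex that binds interferon-stimulated response elements next to its target genes. In the kidney, resident macrophages, endothelial cells and tubular cells can all respond in this way, and an interferon signature is well known from immune-mediated glomerulonephritis.

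The members lie on 14 chromosomes, and 19 of the 40 have another member within 100 kb, counting the genes as GENCODE vM21 places them on GRCm38. All 6 OAS genes are on chromosome 5 and all 4 IFIT genes on chromosome 19. Rsad2 and Cmpk2 lie next to each other on chromosome 12, as do Ifi27 and Ifi27l2a, and chromosome 16 holds Mx1, Mx2, Parp9, Parp14, Dtx3l and Rtp4. Parp9 and Dtx3l overlap, with 0 bases between them. The stranded kit used allows reads of overlapping genes on opposite strands to be separated, but the strand setting of the counting is not given in the sources used here, so values of Parp9 and Dtx3l are uncertain where they share sequence, as are those of the near-identical copies Ifit3 and Ifit3b and of Oas1a and Oas1g.

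Promoter windows of 300 bases, 250 before and 50 after the start of each gene, were searched for GAAANNGAAA and, on the other strand, TTTCNNTTTC, the core of an interferon-stimulated response element, with overlapping matches counted. RefSeq windows on GRCm38.p6 were matched for 29 members, which have 31 windows, and 13 of these 31 windows (41.9%) held the motif, against 1131 of all 32851 windows (3.44%). Dhx58, Zbp1, Usp18, Oas2, Mx1, Mx2, Parp9, Parp14, Rtp4, Ifi27 and Ifi27l2a had no window to search. Irf7, Oasl2 and Ifi44, given in every library below, held no match, nor did the clustered Ifit2, Oasl1 and Cmpk2. The stretches of 60 bases below come only from windows with the motif before the start, for some of the genes described most fully or lying in a cluster. Each is written along the strand of its gene, with the motif letters in capitals.
Stat2 (chr10:128270251-128270310, plus strand): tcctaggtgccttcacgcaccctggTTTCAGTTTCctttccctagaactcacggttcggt
Isg15 (chr4:156200856-156200915, minus strand): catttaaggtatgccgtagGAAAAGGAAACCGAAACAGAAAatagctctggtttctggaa
Ifit1 (chr19:34640769-34640828, plus strand): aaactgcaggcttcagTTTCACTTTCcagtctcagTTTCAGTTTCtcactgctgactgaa
Ifit3 (chr19:34583365-34583424, plus strand): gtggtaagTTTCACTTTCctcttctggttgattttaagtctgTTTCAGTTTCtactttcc
Ifit3b (chr19:34607761-34607820, plus strand): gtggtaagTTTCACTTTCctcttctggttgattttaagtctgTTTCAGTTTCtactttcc
Oas1a (chr5:120907526-120907585, minus strand): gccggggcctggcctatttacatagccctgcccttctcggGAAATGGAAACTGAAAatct
Oas3 (chr5:120777700-120777759, minus strand): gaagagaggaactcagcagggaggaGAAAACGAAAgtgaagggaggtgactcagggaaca
Rsad2 (chr12:26456538-26456597, minus strand): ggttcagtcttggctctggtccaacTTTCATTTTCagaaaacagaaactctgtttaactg
Bst2 (chr8:71537565-71537624, minus strand): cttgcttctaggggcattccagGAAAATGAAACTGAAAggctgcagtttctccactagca
Isg15 held 3 overlapping matches in a row, and 7 of the 31 windows held more than 1. Ifit3 and Ifit3b carry the same 60 letters and cannot be distinguished over this stretch. A match describes the letters of the window and is not a measured binding site.

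Libraries held between 13704248 and 23630210 counted reads in the anti-GBM experiment, between 15665050 and 27583911 in the Adriamycin experiment and between 11186925 and 16254987 in PCKS. Expression is given below as CPM, the count of a gene per 1000000 reads of the library's total after TMM scaling, and fold changes and p-values come from edgeR's quasi-likelihood test with Benjamini-Hochberg adjustment over all genes of a comparison, with ± for the standard error of a log2 fold change. A member is said to have risen or fallen only where the adjusted p is below 0.05. All 40 members passed the filter on low counts in each experiment. The tissue label was met by the kidney epithelium and podocyte markers (Lrp2, Slc34a1, Umod, Slc12a1, Slc12a3, Aqp2 and Nphs1), which summed to between 10288 and 15957 CPM in every kidney library, and to between 2212 and 7614 CPM in the slices.

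Among the members, levels differed widely even after division by exon length. In healthy vehicle-treated kidney of the anti-GBM experiment the highest mean level per kb of exon was that of Samd9l at 49.1 CPM per kb, followed by Lgals3bp at 28.7 CPM per kb, and the lowest was that of Oas3 at 0.0923 CPM per kb. The slices were led by Bst2 at 104 CPM per kb and Lgals3bp at 103 CPM per kb under vehicle. Summed over the 40 members, the level was 866 to 998 CPM in healthy vehicle kidneys and 948 to 1137 CPM in anti-GBM vehicle kidneys. With FGF23 it was 811 to 845 CPM in healthy kidneys and 1225 to 1464 CPM in anti-GBM kidneys, so that the healthy FGF23 libraries lay below the healthy vehicle ones and the anti-GBM FGF23 libraries above the anti-GBM vehicle ones. Such a sum weighs abundant members most. Samd9l, the highest per kb, lay lower in every healthy FGF23 and every anti-GBM vehicle kidney than in every healthy vehicle kidney, unlike most members in disease. In the Adriamycin experiment the sums were 793 to 826 CPM in healthy vehicle kidneys, 765 to 909.9 CPM in healthy FGF23 kidneys, 731 to 996 CPM in Adriamycin vehicle kidneys and 715 to 838 CPM in Adriamycin FGF23 kidneys. Slices had 2918 to 3380.2 CPM under vehicle and 2245 to 3291 CPM under FGF23, with no test between tissue and slices, which differ in strain, disease and culture.

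**Figure D1:**
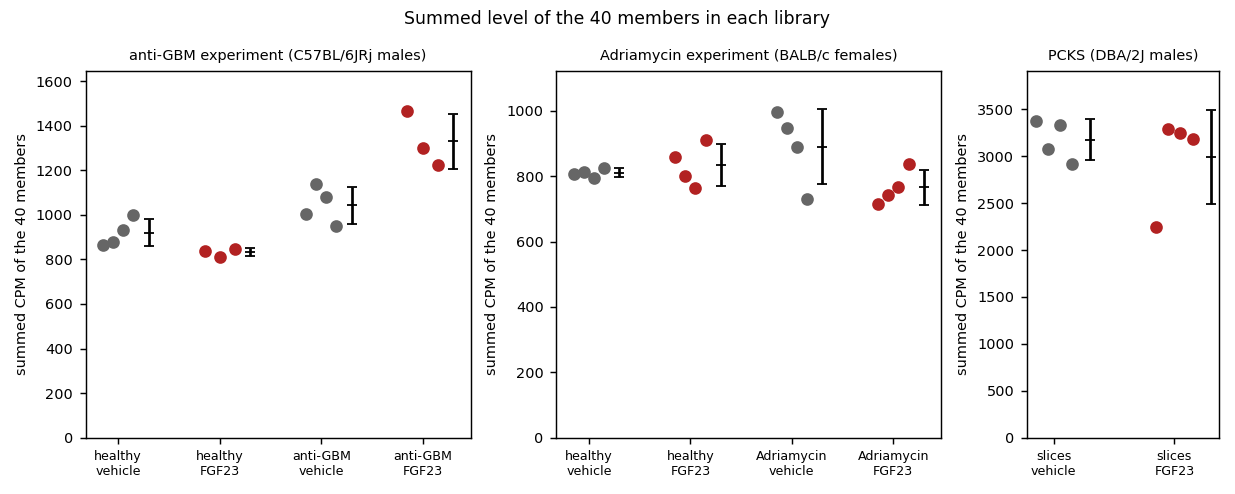
Summed CPM of the 40 members in each library (points) by group, with the mean and SD beside them, in the anti-GBM experiment, the Adriamycin experiment and PCKS, each on its own axis from 0. The 3 anti-GBM FGF23 kidneys, at 1225 to 1464 CPM, lie above all other kidneys of their experiment, and 1 FGF23 slice library (1F) lies at 2245 CPM, below all other slices.

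Some libraries stood apart from the rest of their group. Within the anti-GBM FGF23 group, library NTS13 had the highest level of 33 of the 40 members, and among the anti-GBM vehicle mice NTS6 was highest for 24 and NTS8 lowest for 23. Library Ad8 was the lowest of the Adriamycin vehicle mice for 37 members, while Ad12 was the highest of the healthy FGF23 mice for 30. In the slices, 1F was the lowest of the FGF23 cultures for 36 members. Values without these libraries are given beside the results they touch.

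The first comparison set anti-GBM mice against healthy mice, both given vehicle. The diseased mice had also received sheep IgG in Freund's adjuvant, and the healthy ones saline, so disease and immunisation cannot be told apart. The same holds for the comparison of diseased and healthy mice under FGF23. Interferon-stimulated genes were higher in diseased kidney: 23 of 40 members rose and 2 fell, against 19.4% of all 15859 genes tested that rose and 20.4% that fell. All 6 OAS genes rose, as did all 3 genes of membrane and secreted proteins, whereas Cmpk2 and Samd9l fell. The median log2 fold change of the 40 members was 0.61, beside -0.01 over all genes. For 20 members every diseased kidney lay above every healthy one, which held for 17% of all genes, and for Rsad2, Cmpk2 and Samd9l every diseased kidney lay below, against 18.3% of all genes.

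The OAS enzymes, which make the short oligoadenylates that switch on RNase L, gave the largest differences. Oas2 had a log2 fold change of 1.92 ± 0.33 (adjusted p = 0.000499) and Oas3 one of 1.86 ± 0.32 (adjusted p = 0.000584). Oas1a was at 1.25, 2.04, 1.95 and 1.72 CPM in the healthy vehicle mice and at 4.40, 6.18, 4.37 and 4.10 CPM in the anti-GBM vehicle mice, groups that were far apart. It rose by 1.44 ± 0.19 on the log2 scale (adjusted p = 8.49e-05). Oasl2, an OAS-like member of the family, was at 11.5, 10.2, 11.4 and 14.05 CPM in health and 22.95, 24.4, 20.96 and 16.99 CPM in disease, again without overlap (0.86 ± 0.14, adjusted p = 0.000437). Oasl1, the other OAS-like gene, rose by 1.37 ± 0.20 on the log2 scale (adjusted p = 0.000175).

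Genes of membrane, secreted and mitochondrial proteins followed with smaller but tighter differences. Bst2, which encodes tetherin, the protein that holds budding virus particles at the cell surface, was at 10.9, 11.8, 13.4 and 13.5 CPM in healthy and 21.8, 27.3, 22.3 and 26.6 CPM in anti-GBM mice. All 4 diseased kidneys lay above all 4 healthy ones, and the log2 fold change was 0.98 ± 0.13 (adjusted p = 0.000103). Ifi27, a small mitochondrial protein, had the smallest p of the members: it went from 26.8, 23.4, 27.6 and 26.9 CPM to 47.5, 54.5, 56.4 and 48.3 CPM, a log2 fold change of 0.98 ± 0.08 with an adjusted p of 3e-06. The spread within each group was narrow, and the groups were far apart. Lgals3bp, a secreted glycoprotein, rose by 1.06 ± 0.10 (adjusted p = 8.46e-06).

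Of the regulators, Irf7, the transcription factor that amplifies interferon production, was at 11.6, 14.3, 15.2 and 16.3 CPM in healthy mice and 29.7, 37.4, 23.2 and 24.7 CPM in anti-GBM mice, with every diseased kidney higher (1.00 ± 0.15, adjusted p = 0.000194). Stat2, the ISGF3 subunit, was at 23.03, 20.6, 19.8 and 24.2 CPM and 24.7, 25.1, 30.4 and 24.04 CPM in the same mice, and the groups overlapped. Its log2 fold change of 0.25 ± 0.11 had an adjusted p of 0.085 and was not called. Parp14, a mono-ADP-ribosyltransferase, was likewise not called, with 25.2, 23.6, 26.4 and 29.3 CPM in healthy and 29.7, 32.5, 42.2 and 23.04 CPM in anti-GBM kidneys (0.29 ± 0.17, adjusted p = 0.189).

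Zbp1, a sensor of Z-form nucleic acid that can trigger cell death, stood at 1.64, 2.42, 2.75 and 3.45 CPM in healthy mice and at 5.32, 7.40, 4.52 and 4.32 CPM in anti-GBM mice. It rose by 1.08 ± 0.24 on the log2 scale (adjusted p = 0.00296). Ddx58, which encodes the RNA sensor RIG-I, was at 27.9, 27.8, 27.1 and 33.3 CPM against 34.4, 42.1, 43.8 and 34.8 CPM, a smaller rise of 0.42 ± 0.14 (adjusted p = 0.0259). Mx1, an antiviral GTPase whose gene is defective in most inbred mouse strains, was near the lower end of the scale at 0.283, 0.713, 0.699 and 1.46 CPM in health and 3.07, 3.92, 1.54 and 1.01 CPM in disease. The groups overlapped, since 1 healthy mouse exceeded 1 diseased mouse, yet the log2 fold change of 1.62 ± 0.46 was called (adjusted p = 0.013).

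The ISG15 and IFIT genes gave a mixed picture in disease under vehicle, with 1 of 4 and 2 of 4 genes called. Isg15 was at 2.04, 2.90, 3.24 and 4.04 CPM in healthy mice and 5.16, 7.85, 5.60 and 7.27 CPM in anti-GBM mice without overlap, and it rose by 1.08 ± 0.21 on the log2 scale (adjusted p = 0.00125). Usp18 was at 2.89, 3.56, 3.94 and 3.05 CPM and 5.27, 4.89, 3.75 and 3.02 CPM, which overlapped (0.33 ± 0.18, adjusted p = 0.159). Ifit1 stood at 5.21, 6.41, 6.24 and 6.36 CPM in health and 6.59, 12.6, 8.63 and 9.36 CPM in disease, where the groups were adjacent but apart (0.61 ± 0.16, adjusted p = 0.00874). Ifit3 was at 20.3, 11.5, 11.98 and 18.4 CPM and 19.4, 34.2, 17.5 and 25.99 CPM (0.64 ± 0.23, adjusted p = 0.0397), and Ifi44 at 15.2, 14.5, 13.1 and 16.8 CPM and 10.6, 13.6, 13.5 and 10.7 CPM (-0.29 ± 0.13, adjusted p = 0.0831), and both overlapped. Of the sensors 3 of 5 rose, of the PARP and DTX3L group 1 of 4 and of the ISGF3 and IRF genes 2 of 3.

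Viperin and its neighbour lay lower in disease. Rsad2, whose product viperin makes a chain-terminating nucleotide, was at 46.2, 35.5, 38.99 and 40.6 CPM in healthy and 35.1, 35.5, 26.2 and 32.2 CPM in anti-GBM kidneys. Every diseased kidney lay below every healthy one, although the nearest pair differ only beyond the digits shown. The log2 fold change of -0.32 ± 0.13 had an adjusted p of 0.0537, just outside the threshold, and without library NTS6 it was -0.37 and passed with an adjusted p of 0.05 after rounding. Cmpk2, a mitochondrial nucleotide kinase, fell by 0.44 on the log2 scale (adjusted p = 0.00215), from 17.2, 16.9, 15.9 and 18.02 CPM to 13.8, 13.7, 11.4 and 11.3 CPM. Samd9l, a restrictor of translation and growth, fell from 246, 248.9, 284 and 286 CPM to 182, 190.1, 171 and 154 CPM, a log2 fold change of -0.61 ± 0.08 with an adjusted p of 0.000119.

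**Figure D2:**
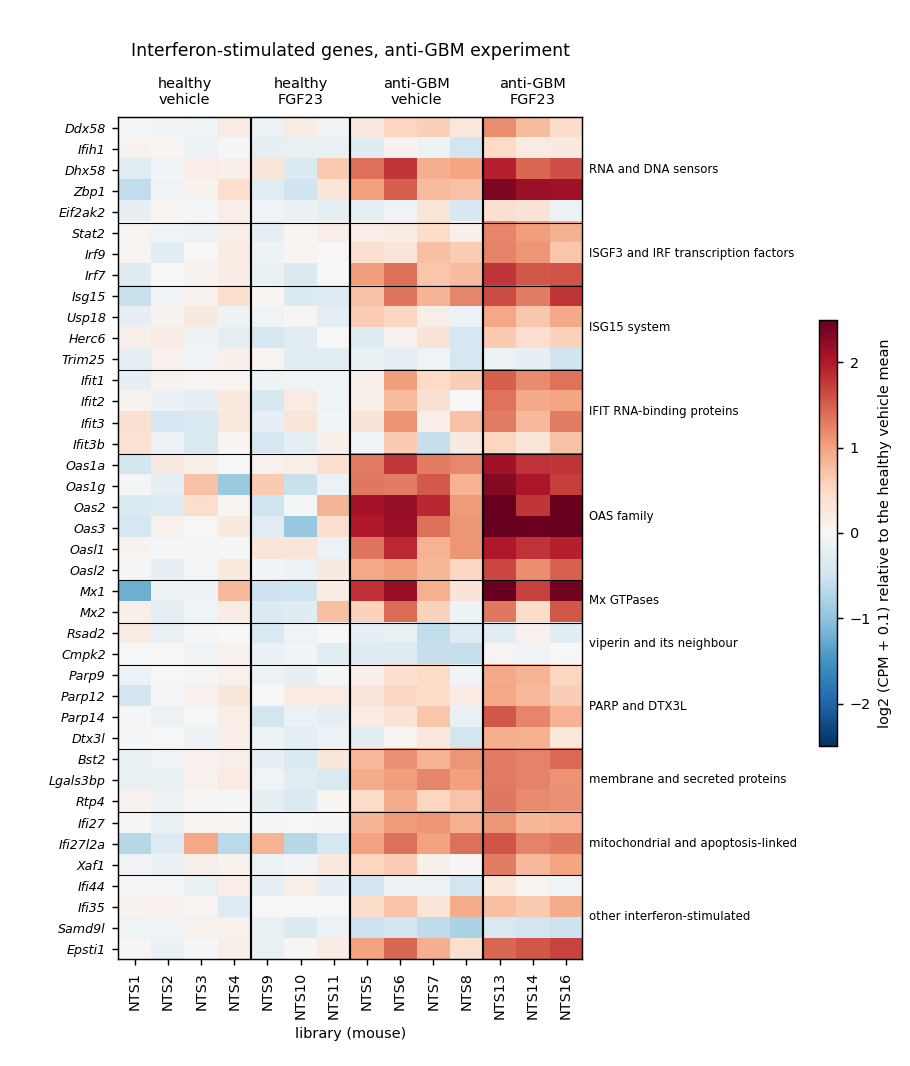
Each row is 1 of the 40 members and each column 1 mouse of the anti-GBM experiment; colour gives log2 (CPM + 0.1) relative to the mean of the healthy vehicle mice, and values beyond the ends of the colour bar take its end colour. The OAS rows are red in both anti-GBM groups, Samd9l is blue in both, and most rows are a deeper red in the 3 anti-GBM FGF23 mice than in the 4 anti-GBM vehicle mice.

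The next comparison asked what FGF23 adds in the diseased kidney, by setting 3 anti-GBM mice given FGF23 against the 4 anti-GBM mice given vehicle. Nearly every member was higher with FGF23 but few of the single genes passed the test. Stat2 and Parp14 rose, which makes 2 of 40 members, against 0.233% of all 15859 genes. The fold change was positive for 38 of the 40 members (49.7% of all genes), with a median log2 fold change of 0.51 beside 0.00 over all genes. At an unadjusted p under 0.05, 26 members were higher and 0 lower, where 6.43% of all genes were higher, and for 22 members every FGF23 mouse lay above every vehicle mouse, as for 5.11% of all genes. DESeq2 in place of edgeR called 13 members, all higher, and 0.976% of the 15777 genes to which it gave an adjusted p.

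Stat2 (ENSMUSG00000040033, chr10:128270559-128292849 on GRCm38) was at 24.7, 25.1, 30.4 and 24.04 CPM in the 4 anti-GBM vehicle mice and at 51.6, 45.2 and 40.8 CPM in the 3 anti-GBM FGF23 mice. The groups were well separated, with means of 26.05 ± 2.91 (SD, n = 4) and 45.9 ± 5.39 CPM (SD, n = 3). Its level was 1.76 times that under vehicle, a log2 fold change of 0.81 ± 0.12 with an adjusted p of 0.00787. The call was lost when library NTS13 was left out, with a log2 fold change of 0.72, and when the 2 diseased groups were fitted without the healthy mice. Of the other ISGF3 and IRF genes, Irf7 was at 29.7, 37.4, 23.2 and 24.7 CPM under vehicle and 49.7, 42.5 and 42.9 CPM under FGF23, also without overlap, and its log2 fold change was 0.65 ± 0.15 (adjusted p = 0.142). Irf9, the DNA-binding subunit of ISGF3, had a log2 fold change of 0.50 ± 0.14 (adjusted p = 0.242).

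Parp14 (ENSMUSG00000034422, chr16:35832874-35871544 on GRCm38) was at 29.7, 32.5, 42.2 and 23.04 CPM under vehicle and 77.3, 61.1 and 47.9 CPM under FGF23 in diseased mice. The lowest FGF23 mouse exceeded the highest vehicle mouse, and the level under FGF23 was 1.94 times that under vehicle (0.96 ± 0.18, adjusted p = 0.0449). This call was close to the threshold: in 12 of the 14 fits that left out 1 mouse of the experiment it was lost, and it remained in the fits without NTS7 and without NTS16. All 4 genes of the PARP and DTX3L group had every FGF23 mouse above every vehicle mouse. Dtx3l, a ubiquitin ligase that partners PARP9, had a log2 fold change of 0.79 ± 0.17 (adjusted p = 0.0932) and Parp9 itself one of 0.54 ± 0.12 (adjusted p = 0.138).

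The largest fold change belonged to Zbp1 (ENSMUSG00000027514, chr2:173206612-173218923 on GRCm38), at 5.32, 7.40, 4.52 and 4.32 CPM under vehicle and 13.4, 11.6 and 11.5 CPM under FGF23 in anti-GBM mice. Its level was 2.26 times that under vehicle with a log2 fold change of 1.18 ± 0.24, and the adjusted p of 0.0626 missed the threshold. Under 2 other count filters, with DESeq2 and without NTS6 the gene passed, with log2 fold changes of 1.18 to 1.36. Ddx58 was at 34.4, 42.1, 43.8 and 34.8 CPM under vehicle and 64.9, 50.05 and 40.2 CPM under FGF23, and these groups overlapped through library NTS16 (0.41 ± 0.15, adjusted p = 0.33). All 5 sensors had a positive fold change.

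In the OAS family all 6 genes had a positive fold change, and for 4 of them, Oas1a, Oas1g, Oas3 and Oasl2, every FGF23 mouse lay above every vehicle mouse. Oas1a was at 7.78, 6.36 and 6.24 CPM in anti-GBM FGF23 mice, just above the 4.10 to 6.18 CPM of the vehicle mice (0.51 ± 0.19, adjusted p = 0.337). Oasl2 reached 37.5, 26.6 and 33.2 CPM with FGF23 against 16.99 to 24.4 CPM with vehicle (0.60 ± 0.15, adjusted p = 0.166). Oas3 had the second largest fold change of the members at 1.06 ± 0.29 (adjusted p = 0.24). None of these 6 genes was called by edgeR.

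Isg15, a ubiquitin-like protein that is attached to other proteins or secreted, was at 5.16, 7.85, 5.60 and 7.27 CPM under vehicle and 9.61, 7.56 and 10.7 CPM under FGF23 in diseased mice, with overlap through library NTS14. Its log2 fold change was 0.53 ± 0.21 (adjusted p = 0.359). Usp18, the protease that removes ISG15 and dampens the interferon receptor, was at 5.27, 4.89, 3.75 and 3.02 CPM and 6.63, 5.40 and 6.54 CPM without overlap (0.54 ± 0.19, adjusted p = 0.328). Trim25, a ubiquitin ligase that acts on RIG-I, was 1 of the 2 members with a negative fold change (-0.03 ± 0.12). Ifi27 was the other (-0.03 ± 0.09), at 47.5, 54.5, 56.4 and 48.3 CPM under vehicle and 56.4, 46.8 and 48.1 CPM under FGF23, values that lay on top of each other although this gene had the smallest p of the members for disease.

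Ifit1, which binds viral RNA that lacks a host-type cap, was at 6.59, 12.6, 8.63 and 9.36 CPM under vehicle and 17.2, 13.9 and 15.6 CPM under FGF23. The groups did not overlap, and their log2 fold change of 0.75 ± 0.17 had an adjusted p of 0.128. Ifit3, a partner of Ifit1, was at 19.4, 34.2, 17.5 and 25.99 CPM and 38.4, 27.3 and 37.9 CPM with overlap through NTS6 (0.51 ± 0.24, adjusted p = 0.397). Mx1 was at 3.07, 3.92, 1.54 and 1.01 CPM under vehicle and 5.29, 2.80 and 4.65 CPM under FGF23, values that spread widely and overlapped (0.83 ± 0.43, adjusted p = 0.433).

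Other members showed smaller differences. Bst2 was at 30.7, 29.5 and 33.1 CPM under FGF23 against 21.8 to 27.3 CPM under vehicle in anti-GBM mice, without overlap (0.35 ± 0.14, adjusted p = 0.358). Ifi44, an interferon-induced GTP-binding-domain protein, was at 10.6, 13.6, 13.5 and 10.7 CPM and 17.9, 15.6 and 13.9 CPM, again without overlap (0.38 ± 0.14, adjusted p = 0.337). Rsad2 was at 35.1, 35.5, 26.2 and 32.2 CPM and 33.1, 43.5 and 32.97 CPM in the same groups, which overlapped (0.18 ± 0.13, adjusted p = 0.578). Samd9l, at 205, 190.0 and 186 CPM under FGF23, had the smallest positive fold change (0.15 ± 0.09).

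**Figure D3:**
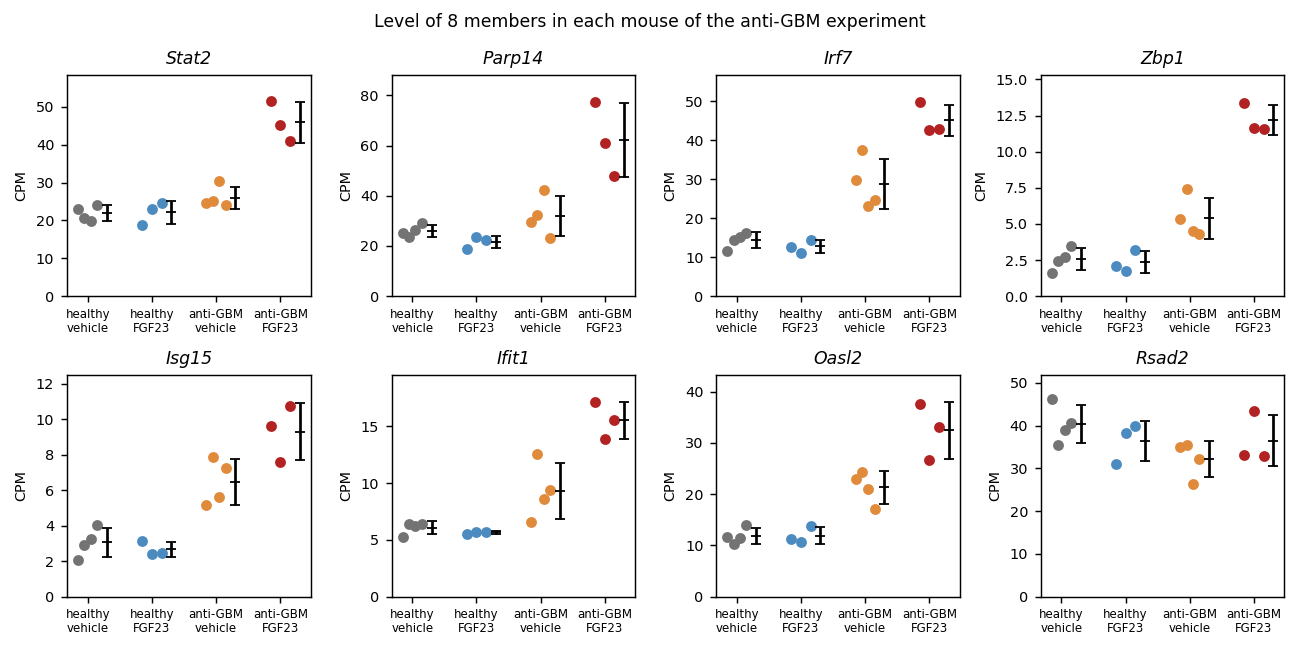
CPM of 8 members in each mouse of the anti-GBM experiment (points) with the group mean and SD beside them, each panel on its own axis from 0. In Stat2, Parp14, Irf7, Zbp1, Ifit1 and Oasl2 the 3 anti-GBM FGF23 mice lie above the 4 anti-GBM vehicle mice, in Isg15 they overlap, and in Rsad2 the anti-GBM vehicle mice, the lowest group by mean, overlap with the anti-GBM FGF23 mice.

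In healthy mice of the same experiment FGF23 had no such pattern. No member was called with edgeR or DESeq2, and neither was any of the 15859 genes with edgeR (0%), with 2 members, Samd9l (-0.22 ± 0.09) and Lgals3bp (-0.24 ± 0.11), lower at an unadjusted p under 0.05, against 2.55% of all genes. The fold change was positive for 14 of the 40 members (46% of all genes) with a median log2 fold change of -0.09 beside -0.01 over all genes. Stat2 was at 23.03, 20.6, 19.8 and 24.2 CPM under vehicle and 18.7, 22.99 and 24.7 CPM under FGF23, and Zbp1 at 1.64, 2.42, 2.75 and 3.45 CPM and 2.11, 1.78 and 3.21 CPM, with overlap in both. Irf7 at 12.7, 11.1 and 14.4 CPM, Isg15 at 3.15, 2.40 and 2.44 CPM and Usp18 at 3.15, 3.41 and 2.86 CPM under FGF23 stayed within or next to their healthy vehicle values, as did Ifit1 at 5.54, 5.72 and 5.71 CPM and Ifit3 at 13.5, 19.3 and 14.8 CPM. Oas1a was at 1.88, 1.97 and 2.37 CPM, Oasl2 at 11.3, 10.6 and 13.7 CPM and Mx1 at 0.516, 0.529 and 0.906 CPM. Ddx58 was at 26.3, 32.99 and 27.4 CPM, Rsad2 at 31.1, 38.2 and 39.997 CPM, Bst2 at 10.7, 9.62 and 15.2 CPM, Ifi27 at 25.2, 25.97 and 25.2 CPM and Ifi44 at 12.7, 16.4 and 12.96 CPM under FGF23, each overlapping its healthy vehicle group. Ifih1, Parp14 and Samd9l lay lower in every healthy FGF23 mouse than in every healthy vehicle mouse, which is 3 of 40 members against 5.01% of all genes and so near that background, with Parp14 at 18.9, 23.5 and 22.5 CPM under FGF23 (-0.27 ± 0.19). The highest positive fold changes were those of Dhx58 (0.25 ± 0.27), Oas1a (0.24 ± 0.21) and Oasl1 (0.19 ± 0.22), and the most negative those of Mx1 (-0.28 ± 0.56), Parp14 and Oas3 (-0.25 ± 0.40).

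Whether the FGF23 effect differed between diseased and healthy mice was tested by the interaction term. The term was positive for all 40 members (50.1% of all genes), with a median of 0.59 on the log2 scale beside 0.00 over all genes, and 21 members were positive at an unadjusted p under 0.05, against 5.5% of all genes. With edgeR 0 members passed the adjusted threshold, which 0.0315% of all genes passed in the positive direction, and with DESeq2 Ifih1, Stat2 and Parp14 passed, against 0.269% of all genes by DESeq2. The smallest adjusted p of the members was that of Stat2, with a term of 0.80 ± 0.17 (adjusted p = 0.162), followed by Parp14 with 1.23 ± 0.26 (adjusted p = 0.162). The largest terms were those of Zbp1 (1.31 ± 0.36), Oas3 (1.31 ± 0.50) and Parp14, and the smallest those of Ifi27 (0.00 ± 0.13), Ifi27l2a (0.10 ± 0.56) and Dhx58 (0.12 ± 0.37). A different effect of FGF23 in diseased and healthy kidney was therefore shown for no single member by edgeR.

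Set against healthy mice given FGF23, anti-GBM mice given FGF23 had 32 members higher and 0 lower, against 14.5% of all genes that rose and 12.7% that fell. The median log2 fold change was 1.14 beside -0.02 over all genes, and for 33 members every diseased mouse lay above every healthy one, as for 22.5% of all genes. Oas3 rose by 3.17 ± 0.37 (adjusted p = 5.24e-05), which is 8.98 times its level in healthy FGF23 mice, Mx1 by 2.73 ± 0.54 (adjusted p = 0.00211) and Zbp1 by 2.38 ± 0.27 (adjusted p = 4.23e-05). The smallest p belonged to Lgals3bp (1.46 ± 0.12, adjusted p = 3.92e-06), Irf7 (1.83 ± 0.17, adjusted p = 1.07e-05) and Ifi27 (0.99 ± 0.10, adjusted p = 1.26e-05). Rtp4, a chaperone of membrane receptors, rose by 1.42 ± 0.15, Bst2 by 1.40 ± 0.15 and Oasl2 by 1.46 ± 0.16, with adjusted p values of 2.03e-05, 2.91e-05 and 3.65e-05. By role 6 of 6 OAS genes, 4 of 4 of the PARP and DTX3L group, 3 of 3 ISGF3 and IRF genes, 4 of 5 sensors and 3 of 4 IFIT genes rose, while neither Rsad2 nor Cmpk2 was called. Samd9l (-0.24 ± 0.10), Trim25 (-0.11 ± 0.13) and Rsad2 (0.00 ± 0.14) had the smallest fold changes. The comparisons of disease under vehicle, disease under FGF23 and FGF23 in disease share groups of mice and are not independent of each other.

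**Figure D4:**
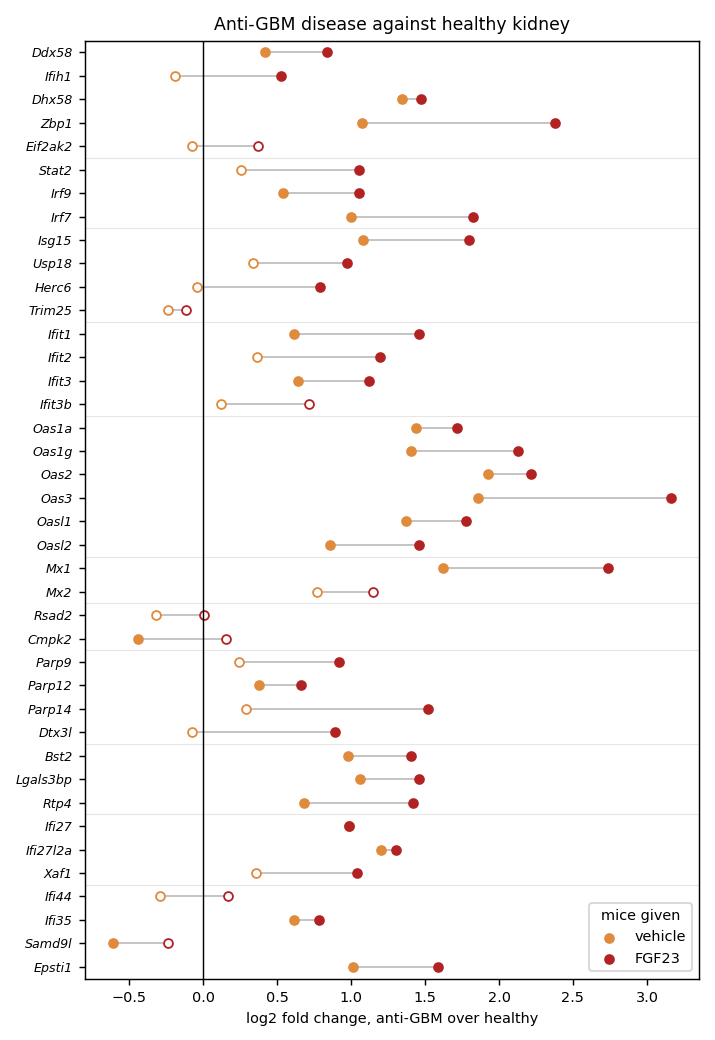
Log2 fold change of anti-GBM over healthy kidney for each member (rows) in mice given vehicle (orange) and mice given FGF23 (red), filled where the adjusted p was below 0.05, with a line joining the 2 points of a gene. The red point lies to the right for nearly all members, by most for Zbp1, Oas3 and Parp14, and the 2 points coincide for Ifi27.

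Cell type markers were read beside these results, since in bulk tissue fewer cells of a type and less RNA per cell cannot be told apart. The summed level of 8 macrophage and monocyte markers was 112 to 126 CPM in healthy vehicle kidneys, 212 to 450.1 CPM in anti-GBM vehicle kidneys and 359 to 381 CPM in anti-GBM FGF23 kidneys. In disease 6 of the 8 rose under vehicle, where 19.4% of all genes rose, and 7 of the 8 under FGF23, where 14.5% rose. With FGF23 against vehicle in diseased mice all 8 had a positive fold change, from 0.05 for Lyz2 to 0.93 for Ly6c2, and 0 were called, while the summed levels of the FGF23 mice fell inside those of the vehicle mice. T cell markers summed to 4.90 to 11.2 CPM under vehicle and 11.2 to 12.2 CPM under FGF23 in diseased mice with all 5 positive and 0 called, neutrophil markers to 3.35 to 13.9 CPM and 1.83 to 3.95 CPM with Ly6g at 0 in all 3 FGF23 mice, and NK cell markers to 1.29 to 1.89 CPM and 1.25 to 2.05 CPM. B cell markers summed to 1.01 to 3.28 CPM and 1.30 to 2.28 CPM, plasmacytoid dendritic cell markers (Siglech, Ccr9, Tcf4 and Il3ra) to 39.7 to 51.2 CPM and 45.4 to 47.8 CPM, and endothelial markers to 223 to 293 CPM and 208 to 267 CPM. Sums of different lists do not rank the cell types by number. Their part in the differences between groups was not tested.

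The Adriamycin experiment asked the same of another kidney disease, in females of another strain and with a single dose of FGF23. In Adriamycin mice nearly all members were lower with FGF23 than with vehicle, the opposite side from anti-GBM mice, but none passed the test. The fold change was negative for 39 of the 40 members, where 50.1% of all 16020 genes tested were positive, with a median log2 fold change of -0.37 beside 0.00 over all genes. At an unadjusted p under 0.05, 16 members were lower and 0 higher, against 2.92% of all genes that were lower. By edgeR 0 members were called, as were 0.0375% of all genes in either direction, and by DESeq2 0 members were called. For 2 members, Trim25 and Cmpk2, every FGF23 mouse lay below every vehicle mouse, as for 1.77% of all genes.

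Cmpk2 had the smallest p of the members, at 14.3, 14.3, 16.7 and 13.5 CPM in Adriamycin mice given vehicle and 9.34, 10.6, 12.2 and 12.5 CPM in those given FGF23 (-0.40 ± 0.10, adjusted p = 0.376). The groups did not overlap. Irf7 was at 22.9, 24.2, 23.5 and 11.6 CPM under vehicle and 11.9, 12.8, 14.9 and 13.4 CPM under FGF23, where library Ad8 of the vehicle group lay below all 4 FGF23 mice (-0.64 ± 0.20, adjusted p = 0.652). Ifit3 was at 14.6, 16.2, 14.7 and 7.21 CPM under vehicle and 7.21, 7.04, 8.57 and 9.39 CPM under FGF23, also overlapping through Ad8 (-0.72 ± 0.25, adjusted p = 0.773). Oas1g had the most negative fold change of the members at -0.73 ± 0.28 (adjusted p = 0.825).

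The same low library recurred through the other roles. Oas1a was at 3.14, 3.03, 3.36 and 1.97 CPM in Adriamycin mice given vehicle and 1.71, 1.76, 2.33 and 1.93 CPM in those given FGF23 (-0.58 ± 0.19), and Oasl2 was at 17.9, 21.6, 17.9 and 10.2 CPM and 9.496, 11.7, 13.8 and 16.4 CPM (-0.40 ± 0.21). Isg15 was at 5.43, 4.41, 4.09 and 2.44 CPM under vehicle and 2.13, 2.33, 3.62 and 3.09 CPM under FGF23 (-0.56 ± 0.25), and Usp18 at 4.54, 4.59, 4.35 and 2.74 CPM and 2.54, 2.64, 3.38 and 2.89 CPM (-0.51 ± 0.19). Bst2 was at 20.7, 19.1, 16.4 and 11.9 CPM and 11.6, 12.7, 13.9 and 14.02 CPM (-0.39 ± 0.13), and Ifi44 at 25.1, 24.8, 22.9 and 15.5 CPM and 13.5, 14.6, 16.7 and 18.3 CPM (-0.49 ± 0.16). In each of these genes 3 vehicle mice lay above most or all of the FGF23 mice and Ad8 lay among or below them. Without Ad8 the median of the 40 members was -0.44 and all 40 were negative.

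Stat2, which rose with FGF23 in anti-GBM disease, was at 34.7, 33.6, 27.9 and 24.2 CPM in Adriamycin mice under vehicle and 26.6, 25.3, 27.3 and 34.1 CPM under FGF23 (-0.09 ± 0.10, adjusted p = 0.991). Parp14, the other gene that rose there, was at 39.1, 33.1, 27.3 and 22.7 CPM and 18.3, 22.7, 25.04 and 30.9 CPM (-0.34 ± 0.16, adjusted p = 0.869). Both genes overlapped between the treatments. Zbp1 was at 3.28, 2.80, 1.98 and 1.13 CPM and 1.45, 1.01, 1.999 and 1.93 CPM (-0.55 ± 0.29), Ddx58 at 45.1, 42.8, 40.6 and 34.7 CPM and 37.5, 36.2, 38.12 and 46.2 CPM (-0.05 ± 0.08), and Ifit1 at 8.98, 6.70, 7.96 and 5.13 CPM and 3.63, 4.62, 6.09 and 6.11 CPM (-0.50 ± 0.21). Mx1 was at 0.842, 0.643, 0.775 and 0.417 CPM and 0.675, 0.528, 0.571 and 0.643 CPM (-0.17 ± 0.33), Rsad2 at 27.9, 32.6, 32.4 and 23.08 CPM and 26.98, 20.8, 24.1 and 22.4 CPM (-0.30 ± 0.14) and Ifi27 at 58.96, 52.1, 45.9 and 34.3 CPM and 38.6, 38.7, 39.7 and 41.8 CPM (-0.27 ± 0.12). Samd9l (0.00 ± 0.05), Ddx58 and Ifi35 (-0.06 ± 0.09) had the highest fold changes of the 40. The FGF23 effect was not tested between the anti-GBM and the Adriamycin experiment, which differ in strain, sex, disease, number of FGF23 doses and time.

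In healthy mice of the Adriamycin experiment the members with FGF23 lay near their vehicle values. None of the 40 was called by edgeR or DESeq2, nor was any of the 16020 genes by edgeR (0%), and 4 members had an unadjusted p under 0.05, against 6.69% of all genes. DESeq2 gave an adjusted p for 31 of the 40. The 4 were Ifi27l2a (1.14 ± 0.44), Mx1 (0.74 ± 0.33) and Cmpk2 (0.24 ± 0.10) on the higher side and Epsti1 (-0.44 ± 0.17) on the lower. The median was 0.04 beside 0.00 over all genes, with 25 of 40 members positive (51.1% of all genes). Stat2 was at 26.9, 27.3, 28.5 and 28.1 CPM under vehicle and 30.1, 29.05, 29.2 and 33.3 CPM under FGF23, the only member with every FGF23 mouse above every vehicle mouse, as for 1.61% of all genes, so that the count is near the background. Irf7 was at 17.1, 15.7, 16.5 and 17.3 CPM and 15.97, 14.4, 10.6 and 19.9 CPM, and Ifit1 at 5.82, 6.40, 5.05 and 6.65 CPM and 5.91, 5.59, 5.61 and 9.19 CPM, in which library Ad12 gave the highest value of the FGF23 group. Without Ad12 the median was -0.03 and 16 of the 40 members were positive.

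Values in each healthy mouse of this experiment follow for the other members named by role. Parp14 was at 24.2, 26.8, 25.97 and 27.2 CPM under vehicle and 28.9, 26.6, 25.7 and 34.3 CPM under FGF23, Zbp1 at 2.16, 1.88, 1.81 and 1.40 CPM and 1.81, 1.82, 1.24 and 2.26 CPM, and Ddx58 at 42.1, 40.9, 39.98 and 42.1 CPM and 40.5, 41.9, 41.4 and 45.6 CPM. Isg15 was at 3.48, 3.76, 2.94 and 3.39 CPM and 3.91, 2.58, 2.697 and 5.09 CPM, Usp18 at 2.86, 3.09, 3.09 and 3.89 CPM and 3.19, 2.77, 2.75 and 4.48 CPM, and Ifit3 at 10.2, 13.3, 10.9 and 14.1 CPM and 10.5, 9.19, 7.07 and 16.7 CPM. Oas1a was at 2.16, 1.92, 2.55 and 2.46 CPM and 1.81, 2.30, 1.78 and 2.92 CPM, Oasl2 at 12.9, 14.9, 15.6 and 17.1 CPM and 16.2, 13.9, 10.5 and 18.2 CPM, and Mx1 at 0.366, 0.313, 0.637 and 0.466 CPM and 0.620, 0.396, 0.755 and 1.22 CPM. The treatments overlapped in all 9 of these genes, and in each of them the highest FGF23 value was that of Ad12. Rsad2 was at 29.2, 26.4, 22.98 and 28.7 CPM and 21.2, 22.4, 28.3 and 34.1 CPM, Bst2 at 14.6, 13.3, 12.8 and 13.2 CPM and 15.9, 14.7, 11.9 and 14.98 CPM, Ifi27 at 42.4, 40.8, 41.3 and 39.7 CPM and 44.5, 42.8, 36.03 and 47.01 CPM, and Ifi44 at 20.9, 19.7, 17.1 and 19.7 CPM and 17.5, 15.3, 16.4 and 24.5 CPM, also with overlap.

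The interaction of FGF23 with Adriamycin was negative for 37 of 40 members (49.7% of all genes were positive), with a median of -0.41 beside 0.00 over all genes. By edgeR 0 members and 0% of all genes were called, by DESeq2 0 members, and at an unadjusted p under 0.05 8 members were lower, against 2.92% of all genes. Cmpk2 had the smallest p (-0.63 ± 0.14, adjusted p = 0.528). The most negative terms were those of Ifi27l2a (-1.68 ± 0.64), Oas3 (-1.18 ± 0.60) and Mx1 (-0.92 ± 0.46), and the highest those of Epsti1 (0.07 ± 0.24), Herc6 (0.01 ± 0.24) and Samd9l (0.00 ± 0.08). Without Ad12 the median was -0.28 and without Ad8 it was -0.55.

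Adriamycin disease itself was compared with health under each treatment. Under vehicle 0 members were called by edgeR or DESeq2, against 0.331% of all genes, and 4 members were higher at an unadjusted p under 0.05, against 4.15% of all genes. The median was 0.17 beside 0.00 over all genes and 36 members were positive (48.6% of all genes), while without Ad8 the median was 0.30. Lgals3bp (0.47 ± 0.13, adjusted p = 0.215), Oas3 (0.76 ± 0.42) and Mx1 (0.62 ± 0.33) had the highest values among the members, and Herc6 (-0.28 ± 0.17), Oas2 (-0.15 ± 0.29) and Samd9l (-0.05 ± 0.05) the lowest. Under FGF23 0 members were called by edgeR and 1, Cmpk2, by DESeq2, against 0.699% of all genes by edgeR and 1.68% by DESeq2, with 4 members lower at an unadjusted p under 0.05, against 6.89% of all genes. The median was -0.20 beside -0.01, and 38 members were negative, where 47.6% of all genes were positive. Over the fits that left out 1 mouse, this median ranged from -0.28 to -0.07. Cmpk2 had a log2 fold change of -0.38 ± 0.10 (adjusted p = 0.121) and Ifi27l2a one of -1.55 ± 0.45 (adjusted p = 0.161), followed by Oasl1 (-0.47 ± 0.17) and Ifit3 (-0.44 ± 0.25). Without the healthy FGF23 library Ad12, Ifi27l2a was called at -1.85, further from 0 than with it, so Ad12 was not a high library for this gene. Epsti1 (0.18 ± 0.18), Lgals3bp (0.12 ± 0.13) and Parp12 (0.00 ± 0.12) were highest.

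Macrophage and monocyte markers in this experiment summed to 159.8 to 207 CPM in healthy vehicle mice, 138 to 201 CPM in healthy FGF23 mice, 96.2 to 176 CPM in Adriamycin vehicle mice and 110.4 to 139 CPM in Adriamycin FGF23 mice, so that Adriamycin mice did not lie above healthy ones. T cell markers summed to 2.80 to 3.58 CPM under vehicle and 2.46 to 4.76 CPM under FGF23 in Adriamycin mice. Their part in the values of the members was not tested.

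The slices asked whether FGF23 acts on the same genes in diseased kidney tissue kept outside the body. No member was called by edgeR or DESeq2, nor was any of the 15090 genes tested by edgeR (0%). With edgeR 0 members had an unadjusted p under 0.05, against 4.89% of all genes, so that the count is near the background. The fold change was negative for 30 of the 40 members with a median of -0.06, beside -0.01 over all genes, of which 48.4% were positive. This direction rested on library 1F: without it 29 members were positive and the median was 0.06. Oas1g (0.18 ± 0.14), Oas2 (0.17 ± 0.14) and Oasl1 (0.13 ± 0.11) were the highest, and Samd9l (-0.35 ± 0.17), Ifi27l2a (-0.29 ± 0.15) and Zbp1 (-0.20 ± 0.12) the lowest.

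Stat2 was at 142, 112, 152 and 131 CPM in the vehicle slices and 103, 148, 132 and 148 CPM in the FGF23 slices (-0.02 ± 0.13), and Irf7 at 144, 155, 139 and 124 CPM and 91.2, 129, 155 and 117 CPM (-0.19 ± 0.14). In both the first FGF23 culture, 1F, was lowest and the other 3 cultures lay within or near the vehicle range. Parp14 was at 147, 156, 156 and 148 CPM and 92.1, 158, 159.6 and 146 CPM (-0.13 ± 0.15), Zbp1 at 41.5, 40.3, 44.6 and 39.5 CPM and 26.7, 38.7, 38.07 and 40.6 CPM, and Ddx58 at 103, 104, 106 and 98.5 CPM and 80.9, 108, 109.7 and 113 CPM (0.00 ± 0.10). Isg15 was at 72.7, 60.1, 74.3 and 58.7 CPM and 51.6, 69.04, 82.98 and 61.7 CPM (0.00 ± 0.14), and Usp18 at 41.2, 36.3, 38.08 and 33.3 CPM and 28.3, 42.9, 38.9 and 38.6 CPM (0.00 ± 0.13).

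Among the RNA-binding and RNA-degrading arms, Ifit1 was at 96.7, 72.8, 96.4 and 76.2 CPM in vehicle slices and 42.7, 105, 77.6 and 95.5 CPM in FGF23 slices (-0.09 ± 0.23), and Ifit3 at 174, 137, 176 and 123 CPM and 114, 168, 161 and 154 CPM (-0.03 ± 0.15). Oas1a was at 22.6, 23.02, 23.097 and 21.2 CPM and 17.2, 21.8, 25.1 and 21.2 CPM (-0.08 ± 0.12) and Oasl2 at 157, 141, 151 and 132 CPM and 96.3, 152, 153 and 153 CPM (-0.07 ± 0.14). The treatments overlapped in all 4 genes. Rsad2 was at 279, 167, 283 and 194 CPM and 152, 282, 222 and 255 CPM (-0.02 ± 0.21), Mx1 at 23.8, 18.3, 24.8 and 23.13 CPM and 16.8, 31.8, 18.4 and 30.2 CPM (0.12 ± 0.21), and Bst2 at 105, 94.3, 90.98 and 84.7 CPM and 82.8, 87.5, 115 and 87.5 CPM (-0.01 ± 0.12). Ifi27 was at 77.5, 82.1, 75.9 and 85.96 CPM and 82.4, 64.2, 96.5 and 64.8 CPM (-0.06 ± 0.13) and Ifi44 at 54.99, 55.2, 48.6 and 45.4 CPM and 28.3, 53.6, 58.1 and 48.7 CPM (-0.11 ± 0.18). In the slices, macrophage and monocyte markers summed to 503 to 673 CPM under vehicle and 426 to 599 CPM under FGF23, and kidney epithelium and podocyte markers to 2212 to 5148 CPM and 3784 to 7614 CPM. Their part in the values of the members was not tested.

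**Figure D5:**
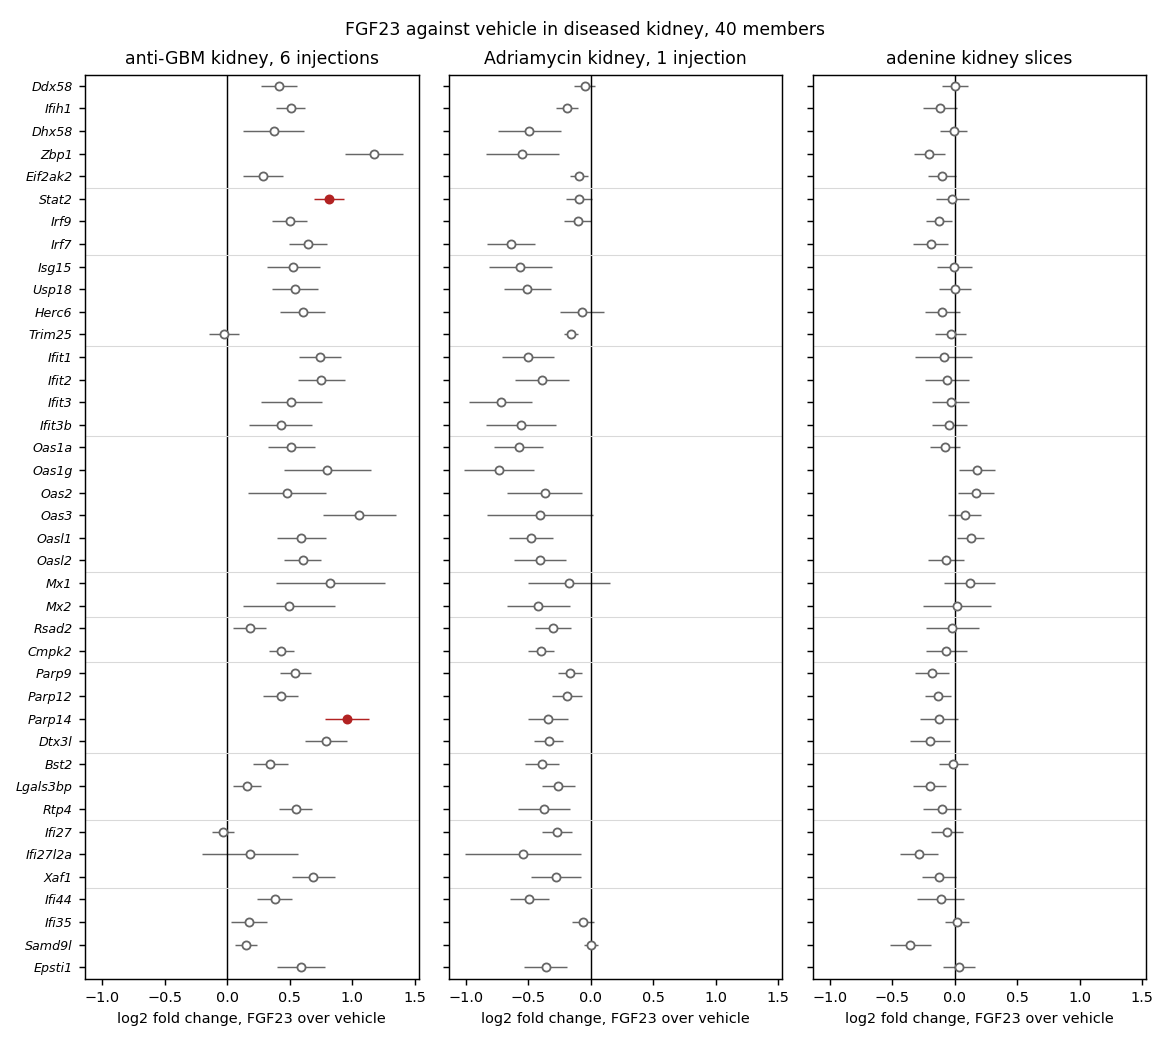
Log2 fold change of FGF23 over vehicle with its standard error for each of the 40 members (rows) in anti-GBM mice, Adriamycin mice and PCKS, with filled red points where the adjusted p was below 0.05. Points lie to the right of 0 for 38 members in anti-GBM mice, with Stat2 and Parp14 filled, and to the left for 39 in Adriamycin mice and for 30 in the slices, with none filled.

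The ligands and the machinery upstream of these genes were read from lists beside the members. Of 20 genes of type I, type II and type III interferons and their relatives, 19 had a count of 0 in all 14 kidneys of the anti-GBM experiment and 19 in all 16 of the Adriamycin experiment, and Ifng, the remaining one, reached at most 2 counts. Ifnb1, the gene of interferon beta, had 0 counts in every kidney, which allows up to 0.127 to 0.219 CPM in a library of the anti-GBM experiment and up to 0.109 to 0.192 CPM in the Adriamycin experiment, for counting error only. In the slices 13 of the 20 were at 0 in all 8 libraries, and Ifnb1 was detected, at 2.02, 0.410, 1.94 and 1.59 CPM under vehicle and 4.18, 2.39, 3.11 and 2.49 CPM under FGF23. Every FGF23 culture lay above every vehicle culture, with a log2 fold change of 1.06 ± 0.40, an unadjusted p of 0.0228 and an adjusted p of 0.849, so that it was not called.

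Of the receptor chains and kinases, Ifnar1 (0.15 ± 0.09), Ifnar2 (-0.12 ± 0.08), Jak1 (0.05 ± 0.09) and Tyk2 (0.27 ± 0.12) were not called for FGF23 in anti-GBM mice. Ifnar2 rose with anti-GBM disease under vehicle (0.40 ± 0.07, adjusted p = 0.000807) and under FGF23 (0.30 ± 0.08, adjusted p = 0.0174), and Ifnar1 rose under FGF23 (0.29 ± 0.09, adjusted p = 0.0293). In the Adriamycin experiment and the slices none of the receptor chains and kinases was called in any comparison.

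A further 53 interferon-stimulated genes outside the 40 were read in the same fits. Of the 52 tested in the anti-GBM experiment, 3 rose with FGF23 in diseased mice, against 0.233% of all genes. They were Tap1, the peptide transporter of antigen presentation (1.08 ± 0.12, adjusted p = 0.00156), Slfn5, a Schlafen family member (0.52 ± 0.10, adjusted p = 0.0449), and Ifi208, a gene of the cluster of DNA-binding PYHIN proteins (1.28 ± 0.24, adjusted p = 0.0449). In the same comparison 46 of 52 were positive (49.7% of all genes), and the median was 0.28 beside 0.00 over all genes. Under vehicle 23 of 52 were higher and 3 lower in disease, against 19.4% and 20.4% of all genes, and under FGF23 34 were higher and 0 lower, against 14.5% and 12.7%. In Adriamycin mice 0 of 49 were called for FGF23, against 0.0375% of all genes, and 3 were positive (50.1% of all genes), with a median of -0.17. In the slices 0 of 50 were called, against 0% of all genes, and 16 were positive (48.4% of all genes), with a median of -0.06.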

How the data were processed

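Reads of 58 bases from stranded mRNA libraries were aligned by the authors with STAR 2.7.9a to GRCm38 and counted with featureCounts 1.5.1 on Ensembl release 102. The deposited values are raw counts per gene and library. The slice columns were matched to samples by name. The kidney columns carry library names that the sample labels lack, so they were assigned to the labelled groups through the headers of the study's supplementary tables, NTS14 (suffix differing in the count table) by its leading number. Genes were filtered with filterByExpr (minimum count 10), scaled by TMM and fitted per experiment, all groups together, with edgeR 4.0.16 (quasi-likelihood test, Benjamini-Hochberg over all genes tested, threshold 0.05) in R 4.3.3. The fit was tested on simulated data. DESeq2 1.42.0, other size factors and filters, a fold cutoff, fits of the compared groups only, a replicate block for the slices and leaving out each library were tried as alternatives.

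Some genes of the lists beside the members are not reported here. The members and lists were chosen with earlier results of these data known. Values in every library are given for 16 members fixed by role, and for each comparison the members called (the 8 of smallest p where more) and the 3 highest and 3 lowest fold changes are named. P-values weigh a difference between groups against the spread between these libraries.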

Additional observations from a re-analysis of the deposited data

Results flagged for a closer look

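In 11 of the 136 sets of 4 libraries examined, 1 library lay far from the other 3, where chance gives about 1 set in 20. In Adriamycin vehicle mice, Ad8 was far below the others for Irf7, at 11.6 CPM against 22.9 to 24.2 CPM, and for Usp18, at 2.74 CPM against 4.35 to 4.59 CPM. Among the healthy FGF23 mice of that experiment, Ad12 was far above the others for Ifit1, at 9.19 CPM against 5.59 to 5.91 CPM. In the FGF23 slices, 1F was low for Ddx58, at 80.9 CPM against 108 to 113 CPM, for Oasl2, at 96.3 CPM against 152 to 153 CPM, and for the sum of the 40 members, at 2245 CPM against 3189 to 3291 CPM. Library 3F of the same group was high for Bst2, at 115 CPM against 82.8 to 87.5 CPM. Among anti-GBM vehicle mice, NTS7 was high for Stat2, at 30.4 CPM against 24.0 to 25.1 CPM, and NTS6 for Oas1a, at 6.18 CPM against 4.10 to 4.40 CPM. Among the healthy vehicle mice of that experiment, NTS4 was high for Ddx58, at 33.3 CPM against 27.1 to 27.9 CPM, and NTS1 low for Ifit1, at 5.21 CPM against 6.24 to 6.41 CPM. Groups of 3 mice were not examined in this way.

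Cmpk2 was higher with FGF23 in every anti-GBM mouse (0.43 ± 0.10) and lower in every Adriamycin mouse (-0.40 ± 0.10) than in the vehicle mice of the same disease. This difference was not tested, and the 2 experiments differ in strain, sex and dosing.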

How the results depend on the processing

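For FGF23 in anti-GBM mice, where 2 members were called, a further cutoff of 1 on the absolute log2 fold change left 0, no count filter gave 7, DESeq2 gave 13 and a fit of only the 2 groups compared gave 0. Leaving out 1 mouse gave 0 to 5 calls, with 0 without NTS13, 5 without NTS6, 3 without NTS7 or NTS16 and 1, Stat2, in the other fits. The median log2 fold change kept its sign, at 0.43 to 0.64. For the interaction with anti-GBM disease, where 0 were called, no count filter gave 1 (Parp14) and DESeq2 gave 3. For disease under vehicle, where 25 were called, the fold cutoff left 13, and leaving out 1 mouse gave 21 to 29. Under FGF23, where 32 were called, the range was 31 to 34. For Adriamycin against healthy mice under FGF23, where 0 were called, DESeq2 gave 1 and leaving out 1 mouse gave 0 to 1. In the slices the median moved from -0.06 to between -0.12 and 0.06. For the 38 fits that left out 1 library, no call changed direction.

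Vehicle and FGF23 slices share replicate numbers, and the correlations of same-numbered slices were 0.10, 0.10, -0.12 and 0.11, too weak and uneven to treat the numbers as pairs, and whether same-numbered slices share a mouse is not known. With the replicate block 0 members were called and the median was -0.08. In the other 2 experiments mice were allocated at random to FGF23 or vehicle, and RNA came from a kidney fragment of each mouse. Their groups hold separate mice and were not paired. Precision is limited by 3 to 4 libraries per group and by low counts in Oas3, Mx1 and Oas1g.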

Other observations

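Genes upstream of interferon and genes that restrain its signal were read beside the members. Of 12 sensors, adaptors and kinases that lead to interferon production, 5 rose in anti-GBM against healthy mice under vehicle by edgeR's quasi-likelihood test and 0 fell. Over all genes 19.4% rose and 20.4% fell, and a list of 12 genes is too short for a statement about it as a whole. The 5 that rose were Sting1, the adaptor of cytosolic DNA sensing (1.90 ± 0.16, adjusted p = 3.1e-06), Cgas, the enzyme that feeds it (1.54 ± 0.38, adjusted p = 0.00617), Tlr7, an endosomal RNA receptor (1.05 ± 0.20, adjusted p = 0.00129), the adaptor Myd88 (0.58 ± 0.11, adjusted p = 0.00107) and the kinase Ikbke (0.52 ± 0.16, adjusted p = 0.021). Under FGF23 6 rose, where 14.5% of all genes rose, with Tlr9, an endosomal DNA receptor, at 2.36 ± 0.45 (adjusted p = 0.00173). None of the 12 was called for FGF23 within anti-GBM mice, although all 12 had a positive fold change (median 0.10). In Adriamycin against healthy mice under vehicle 1 of the 12 fell, against 0.212% of all genes that fell. It was Irf5, a transcription factor of macrophages (-0.85 ± 0.16, adjusted p = 0.0376).

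Of 5 negative regulators, 3 rose and 1 fell with anti-GBM disease under vehicle, beside 19.4% of all genes that rose and 20.4% that fell, and so few genes allow no statement about the list. Socs3, a suppressor of cytokine signalling, had a log2 fold change of 4.02 ± 0.47 (adjusted p = 3.42e-05), the phosphatase genes Ptpn1 and Ptpn2 rose by 0.63 ± 0.09 and 0.27 ± 0.10 on the log2 scale, and Pias1, an inhibitor of cytokine signalling, fell by 0.23. FGF23 called none of these 5 in anti-GBM mice, where Socs3 had -0.46 ± 0.42 (adjusted p = 0.649).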
